A study of Sus scrofa with 9 samples.

Results

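The comparison set the mammary gland of sows on day 17 of lactation against the same gland on the first day after farrowing. It used 6 of the 9 arrays of the series, the 3 titled L17 and the 3 titled L1. The remaining 3 arrays, from day -17 of late pregnancy, helped to estimate the spread, to filter probe sets and to choose the probe set of each gene. The animals were 6 Large White sows kept under standard management on a maize and soybean diet, and each sow was biopsied on every one of the 3 days, on the right side, in the anterior glands. The labels allow a margin of 2 days for days -17 and 17. Equal volumes of total RNA from 2 sows were pooled for each array, so a value is a mean over 2 sows, and 3 pools per day are labelled as biological replicates. All groups share the breed, the diet and the biopsied side, and no group was treated. Because a biopsy mixes epithelium, fat, stroma, vessels and immune cells, fewer cells of a type and less RNA per cell cannot be told apart in any value given here.

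Alveolar epithelial cells make milk. They secrete caseins and whey proteins through the endoplasmic reticulum and Golgi, build lactose in the Golgi, and bud off triglyceride droplets wrapped in plasma membrane as milk fat globules. Around farrowing the gland is still growing and releases colostrum rich in antibodies taken up from blood; later in lactation, plasma cells that settled in the gland supply immunoglobulin A, which the epithelium carries into milk with the polymeric immunoglobulin receptor.

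Signals are the linear probe set intensities as deposited, which had been scaled so that each of the 6 arrays has the same trimmed mean signal, 500.105 to 500.112. Directions are therefore relative to that mean. The 21 probe sets for E. coli transcripts, control RNAs that the platform adds in set amounts, were brighter in all day 17 pools than in all day 1 pools, by 0.58 to 1.14 on the log2 scale (median 0.89). Scaling the arrays to these controls instead (E. coli scaling) lowered every log2 difference by 0.874. The 6 P1 cre control probe sets were brighter by a median of 0.81. The 100 brightest probe sets held 14.5%, 17.0% and 17.1% of all endogenous signal on day 1 and 21.5%, 21.5% and 21.6% on day 17. The RNA was pooled by volume and not by cell number, so neither the controls nor the mean give RNA per cell. Which stands closer to it was not tested. Across probe sets, which are not independent, Spearman correlations were 0.931 to 0.963 among day 1 pools, 0.963 to 0.965 among day 17 pools and 0.902 to 0.925 between the days. Differences are given as log2 values of day 17 minus day 1 ± standard error from limma, with n = 3 pools per day, and a gene passed where its Benjamini-Hochberg adjusted p was under 0.05 over all probe sets tested. Values per pool are listed in the order of pools 1, 2 and 3, which are called L1-1 to L1-3 on day 1 and L17-1 to L17-3 on day 17.

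Day 17 differed from day 1 at 2116 of 15519 probe sets (13.6%), of which 1090 (7.02%) were higher and 1026 (6.61%) lower on day 17. At least a 2-fold change was seen in 820 of them, 376 higher and 444 lower, and 958 had no single gene symbol. The count fell to 1397 when L1-2 was left out of the fit, to 1329 for L1-3, and to 1079, 1168 and 1049 for L17-1, L17-2 and L17-3. Of these, 661 were lower for L1-2, and 706 were higher and 623 lower for L1-3. For L17-1, L17-2 and L17-3 in turn, 536, 555 and 516 were higher and 543, 613 and 533 lower. Of 5670 named genes, 941 passed (16.6%), 455 higher (8.02%) and 486 lower (8.57%), and 329 of these kept the call whichever of the 9 arrays was left out and had groups that did not overlap (162 higher, 167 lower; below, a gene said to have kept its call met both conditions). Among all genes the groups did not overlap in 37.6%, with day 17 above in 18.2% and day 1 above in 19.4% (34.7% of all probe sets in either direction). Under E. coli scaling, 41 genes were higher (0.723%) and 4343 lower (76.6%), and the median over genes moved from -0.04 to -0.91. Of the rises described below, those said to have risen under E. coli scaling too were the ones that passed there.

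**Figure D1:**
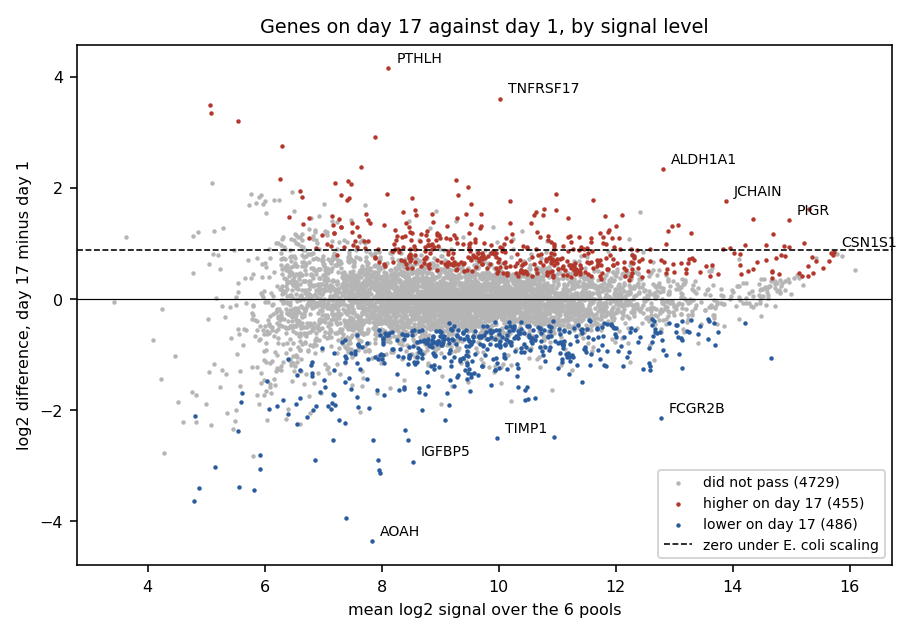
Each point is a gene, placed by its mean log2 signal over the 6 pools (x axis) and its log2 difference, day 17 minus day 1 (y axis), red where it passed as higher (455), blue where it passed as lower (486) and grey otherwise. The dashed line at 0.874 marks zero under E. coli scaling: 264 of the red points lie below that line, where their direction turns, while PTHLH, TNFRSF17, ALDH1A1 and JCHAIN lie well above it.

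Among genes that kept their call, the 8 largest rises were of PTHLH, TNFRSF17, CRHR1, GZMH, ALDH1A1, ADHFE1, RAB26 and CCDC28A, which include no milk protein or milk fat globule gene. PTHLH, which encodes the parathyroid hormone-related protein that mobilises calcium from maternal bone, gave signals of 126, 39.3 and 57.9 on day 1 and 2078, 767 and 1010.3 on day 17. Every day 17 pool was far above every day 1 pool, a 17.8-fold rise (log2 difference 4.15 ± 0.45, adjusted p = 0.00126). The mean signal on day -17 had been 142, so the level before farrowing was also low. TNFRSF17, the plasma cell receptor also called BCMA, gave 542, 239 and 203 on day 1 and 4365, 3281 and 3317 on day 17. It rose 12.2-fold (log2 difference 3.605 ± 0.40, adjusted p = 0.0013), with no overlap, from a level that was 297 on day -17. ALDH1A1, an enzyme that turns retinaldehyde into retinoic acid, was already bright and reached 4169.8, 2800.3 and 2784 on day 1 and 16460, 14668 and 17338 on day 17. Its groups were separate and the rise was 5.05-fold (log2 difference 2.34 ± 0.18, adjusted p = 0.000285).

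GZMH, a granzyme of cytotoxic lymphocytes, rose 5.2-fold from a mean signal of 97.5 to 471 (log2 difference 2.38 ± 0.39, adjusted p = 0.00548). RAB26, a small GTPase of secretory granules, rose 4.38-fold (log2 difference 2.13 ± 0.31, adjusted p = 0.00371) and ADHFE1, a mitochondrial alcohol dehydrogenase family member, 4.4-fold (log2 difference 2.14 ± 0.36, adjusted p = 0.00597). ADHFE1 had a mean signal of 1005 on day -17, 299.2 on day 1 and 1311 on day 17, so day 1 was the low point of the 3 days. CCDC28A rose 4.04-fold (log2 difference 2.02 ± 0.16, adjusted p = 0.000382). CRHR1, a receptor for corticotropin-releasing hormone, gave 6.3, 25.4 and 7.47 on day 1 and 123, 97.6 and 107 on day 17. All values on days -17 and 1 were below the level used to filter dim probe sets. CRHR1 was therefore tested only because of its day 17 values, and its lack of overlap was set by the filter. The 10.2-fold rise was 4.47-fold with a pseudocount of 16. RAB26 gave 71.1, 89.1 and 87.2 on day 1 and was below the filter level in L1-1 and in all day -17 pools. It too reached that level in 3 arrays only with its day 17 values, and its rise was 3.83-fold with the pseudocount. These 8 genes kept their calls and also rose under E. coli scaling, by 3.28 (PTHLH), 2.73 (TNFRSF17), 2.48 (CRHR1), 1.503 (GZMH), 1.46 (ALDH1A1), 1.26 (ADHFE1), 1.26 (RAB26) and 1.14 (CCDC28A) on the log2 scale.

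The largest falls included an enzyme against bacterial lipopolysaccharide, a chemokine and genes of dividing cells. AOAH, acyloxyacyl hydrolase, which strips fatty acids from lipopolysaccharide, gave 506, 1909.5 and 1154 on day 1 and 23.2, 49.8 and 111 on day 17. It fell 20.5-fold (log2 difference -4.36 ± 0.61, adjusted p = 0.00287), with no overlap between days although the day 1 pools themselves ranged widely, and its mean had been 1815 on day -17. L17-1 and L17-2 were below the filter level, and the fall was 15.3-fold with the pseudocount. CXCL14, a chemokine of epithelium and stroma, gave 624, 637 and 1026 on day 1 and 119.8, 23.8 and 213 on day 17. The day 17 pools were uneven, yet all lay below day 1, a 8.76-fold fall (log2 difference -3.13 ± 0.63, adjusted p = 0.0119). PCLAF, a partner of the replication clamp PCNA, gave 610.3, 689 and 898 on day 1 and 66.4, 128 and 75.1 on day 17, an 8.4-fold fall (log2 difference -3.07 ± 0.33, adjusted p = 0.00123). RRM2, the small subunit of ribonucleotide reductase, gave 132, 178 and 267 on day 1 and 16.6, 23.6 and 12.8 on day 17 and fell 10.8-fold (log2 difference -3.43 ± 0.45, adjusted p = 0.00215), or 6.03-fold with the pseudocount.

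SKA1, which binds spindle microtubules to kinetochores, gave 81.2, 92.9 and 123 on day 1 and 3.7, 18.3 and 7.03 on day 17. It fell 12.5-fold, or 4.55-fold with the pseudocount (log2 difference -3.64 ± 0.72, adjusted p = 0.0113). CES1, SLC46A2 and ZNF335 reached a similar size at low signal. CES1, a carboxylesterase, fell from a mean of 101.3 to 10.16 (log2 difference -3.39 ± 0.60, adjusted p = 0.00723). SLC46A2, a solute carrier, fell from 166.7 to 17.91 (log2 difference -3.39 ± 0.59, adjusted p = 0.00721) and ZNF335, a zinc finger protein, from 105.8 to 12.77 (log2 difference -3.03 ± 0.47, adjusted p = 0.00459). Their falls of 10.5-, 10.5- and 8.14-fold were 4.39-, 5.21- and 4.12-fold with the pseudocount. CES1 and SLC46A2 had been brighter still on day -17, at means of 1051 and 545. All day 17 values of SKA1, RRM2, CES1, SLC46A2 and ZNF335 were below the filter level, so the size of their falls is loosely set. SKA1, RRM2 and ZNF335 reached the filter level in 3 arrays only with their day 1 values.

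**Figure D2:**
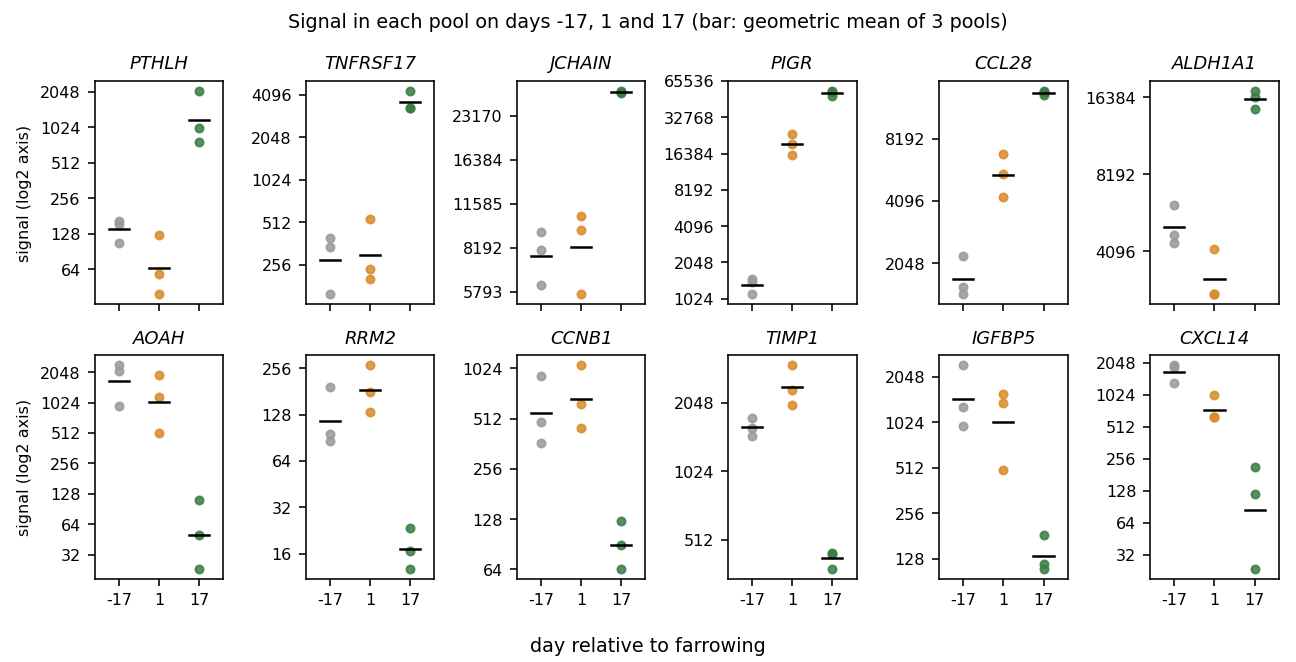
Signal (log2 axis) of 12 genes in each pool on days -17, 1 and 17 relative to farrowing; a point is 1 pool and the bar is the geometric mean of 3. In every panel the day 17 points are all above the day 1 points (top row) or all below them (bottom row), and CCL28 and PIGR stand higher on each later day.

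Genes of immunoglobulin A supply, grouped here by their known role after their values were seen, were among the clearest rises. JCHAIN, the chain that joins immunoglobulin A and M into polymers, gave 10507, 9398 and 5690.1 on day 1 and 27676, 28178 and 27887 on day 17. The day 17 pools lay within a narrow band far above day 1, a 3.38-fold rise (log2 difference 1.76 ± 0.22, adjusted p = 0.0018), while the mean on day -17 had been 7834, close to the day 1 mean of 8532. PIGR, the polymeric immunoglobulin receptor of the epithelium, gave 19505, 15930 and 23919 on day 1 and 54168, 49093 and 53313 on day 17. It rose 2.67-fold (log2 difference 1.42 ± 0.16, adjusted p = 0.00137) from a day 1 level that was itself far above the day -17 mean of 1335. CCL28, the epithelial chemokine that attracts plasma cells making immunoglobulin A, gave 4269, 5505 and 6870.2 on day 1 and 13695, 13921 and 13331 on day 17 and rose 2.51-fold (log2 difference 1.33 ± 0.19, adjusted p = 0.00352). JCHAIN, PIGR and CCL28 kept their calls, and all 3 also rose under E. coli scaling, by 0.88, 0.54 and 0.45 (adjusted p = 0.00684, 0.00593 and 0.0382). TNFRSF17, whose rise is given above, is a plasma cell receptor. Of the B and plasma cell markers, only JCHAIN and CD79B, a B cell receptor chain, had a tested probe set. CD79B gave 30.5, 57.6 and 39.6 on day 1 and 156, 129 and 139.7 on day 17 and did not pass (log2 difference 1.78 ± 0.59, adjusted p = 0.0709). All its values on days -17 and 1 were below the filter level. It was therefore tested only because of its day 17 values, and its lack of overlap was set by the filter. The summed signal of the 2 markers was 5730 to 10540 on day 1 and 27830 to 28310 on day 17, nearly all of it from JCHAIN. XBP1, a transcription factor of secretory cells including plasma cells and named after its values were seen, did not pass (log2 difference 0.23 ± 0.12, adjusted p = 0.221), and its sign turned under E. coli scaling (-0.65).

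T and NK cell markers gave values in the same direction at low signal and did not pass. CD2, an adhesion molecule of T cells, gave 98.8, 12.1 and 35.7 on day 1 and 109, 179 and 83.7 on day 17, with overlapping groups (log2 difference 1.76 ± 0.66, adjusted p = 0.102). CD2 reached the filter level in 3 arrays only with its day 17 values, so its direction is partly set by the filter. The 4 tested markers (CD2, CD3E, CD8A and KLRK1) had adjusted p of 0.102 to 0.426, their median difference was 0.79 (-0.09 under E. coli scaling), and their summed signal was 237.7 to 419.2 on day 1 and 433.1 to 559.8 on day 17. Their part in the rise of GZMH was not tested.

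The 7 milk protein genes were all brighter on day 17 by nearly the same amount, 0.75 to 0.84 on the log2 scale (median 0.80), but by a median of -0.08 under E. coli scaling, where their adjusted p was 0.559 to 0.86. As deposited, 5 of 7 passed as higher, against 8.02% of all genes. CSN1S1, alpha-S1 casein, gave 34002, 42793 and 45746 on day 1 and 72578, 72751 and 72383 on day 17. Its groups did not overlap and the rise was 1.79-fold (log2 difference 0.84 ± 0.12, adjusted p = 0.00287); under E. coli scaling the difference was -0.03. The others that passed were CSN2, beta-casein (0.75 ± 0.19), CSN3, kappa-casein (0.80 ± 0.20), WAP, whey acidic protein (0.83 ± 0.23), and PAEP, beta-lactoglobulin (0.78 ± 0.17), each with its sign turned under E. coli scaling (-0.12, -0.08, -0.04 and -0.09). LALBA, the alpha-lactalbumin subunit of lactose synthase, and CSN1S2, alpha-S2 casein, did not pass (log2 difference 0.81 ± 0.30, adjusted p = 0.0947, and log2 difference 0.77 ± 0.26, adjusted p = 0.0714) although their groups did not overlap; E. coli scaling turned both (-0.07 and -0.10). CSN1S1 alone kept its call. Dropping L1-1, L1-2 or L17-2 left 2 of the 5 calls, and dropping L17-1 or L17-3 left 1. Quantile normalization left 0 calls, with a median of 0.058 over the 7 genes and CSN1S1 at 0.0582 (adjusted p = 0.49). Median centring left 2 calls, and no intensity trend 2.

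These genes shifted together from pool to pool. In day 1 pool 1 all 7 lay below their day 1 mean, by 0.25 to 0.37 on the log2 scale, and in pools 2 and 3 they lay above it by 0.06 to 0.16 and 0.15 to 0.25. On day 17 the medians over the 7 genes were 0.79, 0.81 and 0.79 above the day 1 mean, while the E. coli controls stood at 0.89, 0.80 and 0.93. The brightest endogenous probe set gave 46317, 66327 and 64133 on day 1 and 83601, 82250 and 83676 on day 17. CSN1S1 had a day 17 mean of 72570 with a standard deviation of 184.2 over the pools, against 6109 on day 1. For CSN1S2, the widest of the 7 on day 17, the standard deviations were 3759 on day 17 and 8164 on day 1. Whether signals at the bright end of the range were compressed was not tested. The 7 milk protein probe sets held 1.21%, 1.51% and 1.60% of the endogenous signal on day 1 and 2.28%, 2.33% and 2.27% on day 17, which did not overlap. Relative to the level before farrowing the genes fell into unequal groups: WAP had a mean of 980 and LALBA of 1316 on day -17, whereas CSN1S1 had 25270 and PAEP 19180.

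**Figure D3:**
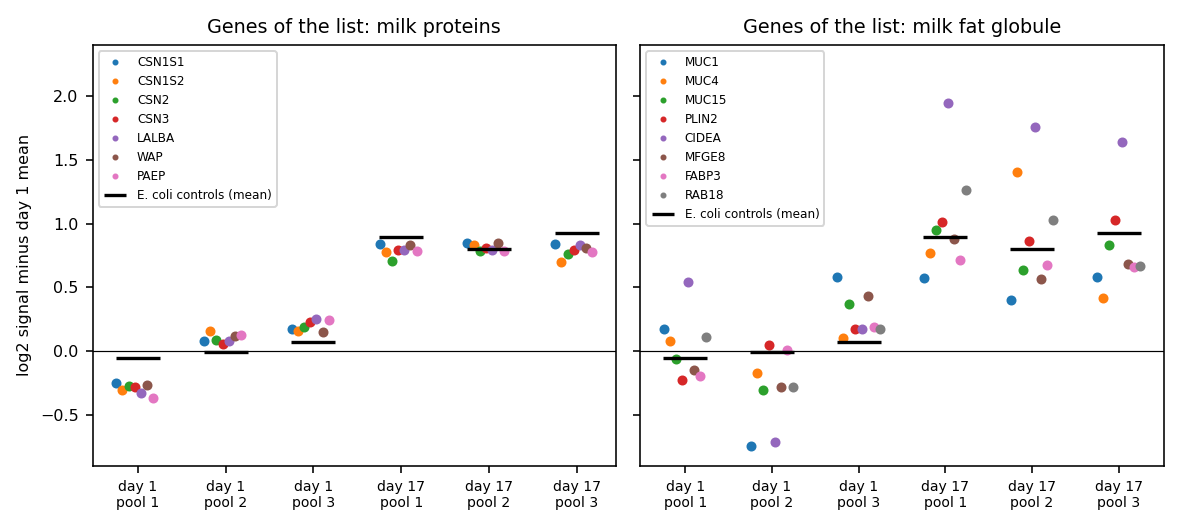
Log2 signal of each gene minus its mean over the 3 day 1 pools (y axis), by pool (x axis), for the 7 milk protein genes (left) and 8 milk fat globule genes (right); short black bars give the mean of the E. coli control probe sets on the same scale. Milk protein points lie close together in each pool, near 0.8 on day 17 like the controls, so that under E. coli scaling their median difference turns to -0.08, while CIDEA and, in 1 pool, MUC4 lie well above the controls.

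Of 8 milk fat globule genes, 6 passed as higher, against 8.02% of all genes, with a median of 0.83 that turned to -0.04 under E. coli scaling, where their adjusted p was 0.0944 to 0.97. PLIN2, perilipin 2 of the lipid droplet coat, gave 14960, 18097 and 19741 on day 1 and 35188, 31718 and 35657 on day 17. Its groups were separate (1.95-fold; log2 difference 0.97 ± 0.12, adjusted p = 0.0018). RAB18, a GTPase of lipid droplets, rose 1.98-fold (log2 difference 0.99 ± 0.19, adjusted p = 0.00995), and FABP3, a fatty acid binding protein, 1.6-fold (log2 difference 0.68 ± 0.13, adjusted p = 0.00854; -0.19 under E. coli scaling and -0.07 with quantile normalization). These 3 kept their calls. CIDEA, which enlarges lipid droplets, had the widest difference of the list, from 2475, 1034 and 1920.1 on day 1 and 6537, 5761 and 5296 on day 17 (log2 difference 1.78 ± 0.45, adjusted p = 0.0272). The 3 day 1 pools spread widely, and the adjusted p rose to 0.0785, 0.0604, 0.085, 0.0748 and 0.0689 when L1-2, L1-3, L17-1, L17-2 and L17-3 were dropped in turn. The membrane glycoproteins MUC15 (0.81 ± 0.17) and MFGE8 (0.71 ± 0.19) passed with signs that turned under E. coli scaling (-0.07 and -0.17), and the mucins MUC4 (log2 difference 0.86 ± 0.26, adjusted p = 0.0558) and MUC1 (log2 difference 0.52 ± 0.28, adjusted p = 0.239) did not pass; their differences were -0.0119 and -0.36 under E. coli scaling. MFGE8 had an adjusted p of 0.0762 and 0.108 when L1-1 and L1-2 were dropped, and 0.122, 0.0707 and 0.0957 for L17-1, L17-2 and L17-3. It also did not pass with quantile normalization (0.181), median centring (0.0708), no filter (0.0543) or no intensity trend (0.0724). Dropping L17-1 left 3 of the 6 calls.

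Of 29 genes of fatty acid and triglyceride synthesis, 9 passed as higher, against 8.02% of all genes, and 2 as lower; the median was 0.04, and 7 kept their calls, 6 higher and 1 lower; median centring turned the median to -0.001, and E. coli scaling turned it to -0.84 with 1 higher and 16 lower. Acyl-CoA synthetases, which activate fatty acids, and acyltransferases, which esterify them to glycerol, were called in both directions: ACSL3, ACSL6, GPAM, GPAT4 and DGAT1 rose, and ACSL5 and AGPAT5 fell. GPAM, the mitochondrial enzyme that adds the first acyl chain to glycerol 3-phosphate, gave 545, 447 and 482 on day 1 and 1902, 1245 and 1198 on day 17, a 2.89-fold rise with separate groups (log2 difference 1.53 ± 0.25, adjusted p = 0.00516), and it also rose under E. coli scaling (0.66, adjusted p = 0.032). ACSL6, a long-chain acyl-CoA synthetase, gave 14584, 9703 and 14404 on day 1 and 34282, 34296 and 34012 on day 17. It rose 2.7-fold (log2 difference 1.43 ± 0.29, adjusted p = 0.0125) after a day -17 mean of only 79. DGAT1, which adds the last acyl chain of a triglyceride, gave 376, 315 and 371 on day 1 and 1027, 1099 and 595 on day 17 and rose 2.48-fold (log2 difference 1.31 ± 0.26, adjusted p = 0.0113). The mean over the 2 DGAT1 probe sets gave 0.83 (adjusted p = 0.0495), and DGAT1 did not pass under E. coli scaling (0.44, adjusted p = 0.178). ACSL3, another acyl-CoA synthetase, rose 2.24-fold (log2 difference 1.16 ± 0.16, adjusted p = 0.00284), and GPAT4, the glycerol-3-phosphate acyltransferase of the endoplasmic reticulum, 2.32-fold (log2 difference 1.21 ± 0.15, adjusted p = 0.0018); both were named after their values were seen.

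Of the lower calls, ACSL5 gave 868, 1072 and 942 on day 1 and 307, 395 and 354 on day 17, a 2.73-fold fall with no overlap (log2 difference -1.45 ± 0.16, adjusted p = 0.00129). AGPAT5, an acyltransferase of phospholipid and triglyceride synthesis named after its values were seen, passed narrowly (log2 difference -0.68 ± 0.20, adjusted p = 0.0473) and did not keep its call. FASN, fatty acid synthase, had mean signals of 12580 on day 1 and 22190 on day 17 (log2 difference 0.82 ± 0.18, adjusted p = 0.0165). Its adjusted p was 0.0543 when L17-2 was dropped and 0.0561 for L17-3, and its sign turned under E. coli scaling (-0.05). SCD, stearoyl-CoA desaturase, passed narrowly (log2 difference 1.003 ± 0.29, adjusted p = 0.0468) but no longer when any of 7 pools was dropped: its adjusted p was then 0.0505 (pool 1 of day -17), 0.0839, 0.117 and 0.0607 (L1-1, L1-2 and L1-3) and 0.114, 0.106 and 0.119 (L17-1, L17-2 and L17-3). SCD also did not pass with quantile normalization (0.41, adjusted p = 0.361), median centring (0.0722), no filter (0.0662), no intensity trend (0.0803) or E. coli scaling (0.13, adjusted p = 0.685). DGAT2, the other triglyceride-forming enzyme, was dim on both days and did not pass (log2 difference -0.44 ± 0.53, adjusted p = 0.611), with a mean of 2359 on day -17. Among genes of fatty acid breakdown, ACADS, short-chain acyl-CoA dehydrogenase, rose 1.76-fold (log2 difference 0.81 ± 0.14, adjusted p = 0.00748; -0.06 under E. coli scaling) and ACADL, the long-chain enzyme, fell 2-fold (log2 difference -1.003 ± 0.20, adjusted p = 0.0122).

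Of 6 adipocyte markers tested 1 passed, as higher (16.7%, against 8.02% of all genes). This was LPL, the lipase that frees fatty acids from blood lipoproteins and is also made by mammary epithelium. It gave 5379, 3998 and 6167 on day 1 and 11750, 12497 and 13652 on day 17 (log2 difference 1.31 ± 0.37, adjusted p = 0.0436). Dropping pool 3 of day -17 gave an adjusted p of 0.058, dropping L1-1, L1-2 and L1-3 gave 0.0657, 0.116 and 0.0707, and dropping L17-1, L17-2 and L17-3 gave 0.0959, 0.105 and 0.12. LPL also did not pass with quantile normalization (adjusted p = 0.0623), median centring (0.0591), no filter (0.055), no intensity trend (0.0731) or E. coli scaling (0.43, adjusted p = 0.311). ADIPOQ, the hormone adiponectin of fat cells, gave 195, 33.5 and 4.58 on day 1 and 23.2, 8.87 and 7.22 on day 17, above the filter level in 1 pool only (log2 difference -1.44 ± 1.23, adjusted p = 0.464). RBP4 (log2 difference -2.78 ± 0.88, adjusted p = 0.0617) and LEP, leptin (log2 difference -0.46 ± 0.61, adjusted p = 0.654), did not pass either, nor did the fatty acid binding protein FABP4 (log2 difference 0.01 ± 0.24, adjusted p = 0.989; -0.87 under E. coli scaling, where it passed as lower). The summed signal of the 6 markers was 18290 to 24440 on day 1 and 28550 to 28860 on day 17, with no overlap, made up mostly of FABP4 and LPL. Pool 1 of day 1 held the highest ADIPOQ and RBP4 signal of the 6 pools; the part of fat in the differences was not tested.

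Genes of lactose and sterol synthesis were called in both directions. UGP2, which makes the UDP-glucose that becomes UDP-galactose, gave 10498, 16173 and 14974 on day 1 and 30280, 25937 and 24276 on day 17. It rose 1.96-fold with separate groups (log2 difference 0.97 ± 0.17, adjusted p = 0.00744), from 3716 on day -17, but did not pass under E. coli scaling (0.09, adjusted p = 0.615). HK1, hexokinase 1, gave 1458, 1549 and 1576 on day 1 and 908, 930.1 and 839.9 on day 17 and fell 1.71-fold (log2 difference -0.78 ± 0.13, adjusted p = 0.00564). Of 11 genes for lactose synthesis and glucose entry, 2 passed as higher (18.2%) and 1 as lower (9.09%), against 8.02% and 8.57% of all genes. The median of 0.11 turned to -0.77 under E. coli scaling, where 8 passed as lower. The second to rise was B4GALT1, the catalytic subunit of lactose synthase (log2 difference 0.61 ± 0.16, adjusted p = 0.0305), whose sign turned under E. coli scaling (-0.26). Its adjusted p was 0.0552, 0.0879, 0.0996 and 0.106 when L1-1, L1-2, L17-1 and L17-2 were dropped, and 0.0798, 0.0646 and 0.0634 with quantile normalization, median centring and no intensity trend. SLC2A1, the glucose transporter GLUT1, did not pass (log2 difference 0.60 ± 0.19, adjusted p = 0.0621; -0.27 under E. coli scaling). In cholesterol synthesis SC5D, lathosterol oxidase, gave 1564, 1777 and 2130.3 on day 1 and 4483, 3247 and 4165 on day 17 and rose 2.17-fold (log2 difference 1.12 ± 0.17, adjusted p = 0.00371). NSDHL, a sterol dehydrogenase, fell 2.12-fold (log2 difference -1.08 ± 0.23, adjusted p = 0.0139), but a further probe set of the gene differed in sign, and the mean of both gave an adjusted p of 0.341.

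In the ion transport list, besides PTHLH, CLCN3, a chloride and proton exchanger of endosomes, gave 1585, 1599 and 1634 on day 1 and 3999, 3256 and 3385 on day 17, a 2.2-fold rise (log2 difference 1.14 ± 0.15, adjusted p = 0.00208). STIM2, a calcium sensor of the endoplasmic reticulum, rose 1.96-fold (log2 difference 0.97 ± 0.18, adjusted p = 0.00876). Of 17 genes, 5 passed as higher (8.02% of all genes were higher) and 12 did not pass, with a median of 0.11 (-0.77 under E. coli scaling, where 1 was higher and 9 lower). The other two were ATP2C2, the calcium pump of the secretory pathway (1.504 ± 0.40), and ORAI1, a calcium channel of the plasma membrane (0.71 ± 0.17; -0.16 under E. coli scaling). Dropping L1-2, L17-1, L17-2 or L17-3 left 3 of the 5 calls.

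Of 43 lysosome and autophagy genes 13 passed as higher, against 8.02% of all genes, and LIPA, lysosomal acid lipase, passed as lower (-1.27 ± 0.29). The median was 0.35, but E. coli scaling turned it to -0.53, with 26 genes lower. WIPI1, which marks the forming autophagosome, gave 1148, 1095 and 968 on day 1 and 2319, 2498 and 2553 on day 17. The days were well apart, a 2.3-fold rise (log2 difference 1.201 ± 0.13, adjusted p = 0.00126). CTSC, the protease cathepsin C, rose 2.15-fold (log2 difference 1.11 ± 0.13, adjusted p = 0.00159), and ATP6V1G1, a subunit of the proton pump that acidifies lysosomes, 1.65-fold (log2 difference 0.72 ± 0.14, adjusted p = 0.0104; -0.16 under E. coli scaling). The 6 that kept their calls were these 3 with ATP6V0E1 (0.65 ± 0.11), a further pump subunit, GABARAPL2 (0.67 ± 0.10), which coats autophagosomes, and the cargo receptor SQSTM1 (0.66 ± 0.12); the last 3 were named after their values were seen, as was LIPA. Under E. coli scaling ATP6V0E1 (-0.22), GABARAPL2 (-0.20) and SQSTM1 (-0.21) turned sign as well, and WIPI1 (0.33, adjusted p = 0.0731) and CTSC (0.23, adjusted p = 0.151) did not pass. Dropping L1-2 or L17-2 left 6 higher calls, dropping L1-3 or L17-3 left 7, and dropping L17-1 left 8; with no intensity trend 7 passed.

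Genes that recognise bacterial products gave positive differences at all 8 members tested (median 0.72), which turned to a median of -0.15 under E. coli scaling with 3 genes lower. As deposited, 4 of the 8 passed as higher (50%), against 8.02% of all genes. TLR2, the receptor for bacterial lipoproteins, gave 2508, 2146 and 2912 on day 1 and 4624, 5365 and 5076 on day 17. It passed, with separate groups (log2 difference 1.002 ± 0.23, adjusted p = 0.0198), but its adjusted p was 0.0614, 0.0507, 0.069 and 0.0632 when L1-2, L17-1, L17-2 and L17-3 were dropped. In all 4 genes passed: TLR2, LY96, which presents lipopolysaccharide to TLR4 (1.11 ± 0.30), MYD88, the adaptor of these receptors (0.90 ± 0.26), and IRAK1, a kinase bound by that adaptor (0.43 ± 0.13; -0.44 under E. coli scaling, where it passed as lower). MYD88 did not pass with median centring (adjusted p = 0.0545) or no filter (0.0679). Dropping pool 3 of day -17 left 1 call, dropping L1-3 left 2, and dropping L1-2, L17-1, L17-2 or L17-3 left 0 in limma; 2 passed with median centring, no filter, no intensity trend or the 6 pools alone. TLR4 itself (log2 difference 0.85 ± 0.27, adjusted p = 0.0599; -0.03 under E. coli scaling) and CD14 (log2 difference 0.11 ± 0.26, adjusted p = 0.812; -0.77 under E. coli scaling) did not pass. TLR2 had a day -17 mean of 291.

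Other defence genes were mixed. CFB, complement factor B, gave 587, 362 and 150.0 on day 1 and 57.6, 52.8 and 25.2 on day 17, a 7.46-fold fall with separate groups (log2 difference -2.90 ± 0.47, adjusted p = 0.00548), and all its day 17 values were below the filter level. Of 24 acute phase and secreted defence genes it was the single lower call (4.17%, against 8.57% of all genes) and PIGR the single higher call (4.17%, against 8.02%). PGLYRP1, a peptidoglycan recognition protein of neutrophils and the brighter of the 2 neutrophil markers tested, gave 20793, 24987 and 24549 on day 1 and 23629, 28074 and 16429 on day 17 and did not pass (log2 difference -0.08 ± 0.20, adjusted p = 0.832), against a day -17 mean of 999. SLA-3, a class I histocompatibility gene, rose 1.85-fold (log2 difference 0.89 ± 0.15, adjusted p = 0.0056), and class I genes share sequence, so their signals may not be separate. B2M, their light chain, rose 1.94-fold at its brightest probe set (log2 difference 0.96 ± 0.12, adjusted p = 0.00174); of its 9 probe sets 2 had the opposite sign, and their mean gave an adjusted p of 0.957. PSME2, an activator subunit of the proteasome that trims peptides for class I, fell 2.1-fold (log2 difference -1.07 ± 0.18, adjusted p = 0.00564). The class II gene SLA-DMA passed (log2 difference 0.77 ± 0.20, adjusted p = 0.033; -0.11 under E. coli scaling) but its adjusted p was 0.0942, 0.11 and 0.112 when L1-2, L17-1 and L17-3 were dropped. The mean over the 2 SLA-DMA probe sets gave an adjusted p of 0.129. Of 24 interferon-stimulated genes 1 passed, as lower (4.17%, against 8.57% of all genes). This was PARP9 (log2 difference -0.65 ± 0.18, adjusted p = 0.037), and its adjusted p was 0.0511 when pool 2 of day -17 was dropped, 0.0609, 0.108 and 0.0546 for L1-1, L1-2 and L1-3, and 0.101, 0.0737 and 0.0956 for L17-1, L17-2 and L17-3.

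Genes of cell division were lower on day 17. Of 48 cell cycle and DNA replication genes 24 passed as lower and the other 24 did not pass, against 8.57% lower over all genes, the median was -0.87, and 14 kept their calls. CCNB1, cyclin B1, which drives entry into mitosis, gave 452, 626 and 1066 on day 1 and 64.7, 89.4 and 125 on day 17. The days were separate in every pool and the fall was 7.49-fold (log2 difference -2.90 ± 0.40, adjusted p = 0.00277). ORC1, a subunit of the origin recognition complex, gave 101, 157 and 262 on day 1 and 43.9, 27.6 and 9.86 on day 17 and fell 7.03-fold (log2 difference -2.81 ± 0.56, adjusted p = 0.0114), or 4.37-fold with the pseudocount. Falls of about 4-fold were seen in CCNB2, cyclin B2 (log2 difference -2.08 ± 0.41), MCM3, a helicase subunit of replication (log2 difference -2.004 ± 0.35), and UBE2C, which supplies ubiquitin to the anaphase-promoting complex (log2 difference -1.99 ± 0.40); these 3 were named after their values were seen. All day 17 values of ORC1, CCNB2 and MCM3 were below the filter level, and with the pseudocount CCNB2 fell 3.32-fold and MCM3 3.35-fold. PCNA, the replication clamp, did not pass (log2 difference -0.68 ± 0.23, adjusted p = 0.0789). Within day 1, pool 3 had the highest signal for CCNB1, ORC1, CCNB2, MCM3, UBE2C and RRM2, and 15 genes of the list passed when that pool was dropped. The levels on day -17 were near those of day 1, at 594 against a day 1 mean of 715 for CCNB1 and 125 against 192.5 for RRM2.

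Matrix genes were lower as well: of 33 collagens and matrix genes 10 passed as lower, against 8.57% of all genes, and 23 did not pass, with a median of -0.79. TNC, tenascin C, a matrix glycoprotein of growing tissue, gave 167, 234 and 271 on day 1 and 82.1, 53.4 and 29.5 on day 17. It fell 4.34-fold with separate groups (log2 difference -2.12 ± 0.39, adjusted p = 0.00876). All its day 17 values were below the filter level, and the fall was 3.48-fold with the pseudocount. VCAN, the proteoglycan versican, gave 1432, 859 and 1778 on day 1 and 419, 394 and 423 on day 17 and fell 3.15-fold (log2 difference -1.66 ± 0.23, adjusted p = 0.00287). SERPINH1, the chaperone of collagen folding, fell 2.42-fold (log2 difference -1.28 ± 0.20, adjusted p = 0.00451). Dropping L17-1 or L17-3 left 6 calls, and 5 genes kept theirs. The fibrillar collagens of fibroblasts did not pass: COL1A2 gave 281, 211 and 274 on day 1 and 135, 164 and 157 on day 17 (log2 difference -0.74 ± 0.24, adjusted p = 0.0634) and COL3A1 44.8, 183 and 39.6 on day 1 and 97.3, 100.2 and 106 on day 17 (log2 difference 0.56 ± 0.51, adjusted p = 0.495; -0.32 under E. coli scaling). The 4 fibroblast markers had adjusted p of 0.0634 to 0.84 (median -0.42), and their summed signal was 14020 to 32210 on day 1 and 12740 to 14440 on day 17. Their part in the falls of matrix genes was not tested.

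TIMP1, the secreted inhibitor of matrix metalloproteases, had the smallest adjusted p of the genes named here. It gave 2316, 1997 and 2983 on day 1 and 449, 443 and 382 on day 17, a 5.66-fold fall from separate groups (log2 difference -2.50 ± 0.16, adjusted p = 0.000186). ADAMTS1, a protease that cuts versican, gave 1598, 1468 and 877 on day 1 and 588, 459 and 622 on day 17 and fell 2.31-fold (log2 difference -1.21 ± 0.22, adjusted p = 0.0083). Of 13 matrix proteases and inhibitors 5 passed as lower, against 8.57% of all genes, and 8 did not pass, and the median was -0.75; dropping L17-1 left 2 calls, and dropping L17-3 or the intensity trend left 3. IGFBP5, an insulin-like growth factor binding protein of the mammary gland, gave 1581, 1378 and 493 on day 1 and 119, 185 and 111 on day 17. L1-3 was well below the other two, but all 3 were above day 17, a 7.62-fold fall (log2 difference -2.93 ± 0.45, adjusted p = 0.00451). It was the single call among 6 genes of the insulin-like growth factor system (16.7%, against 8.57% of all genes).

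**Figure D4:**
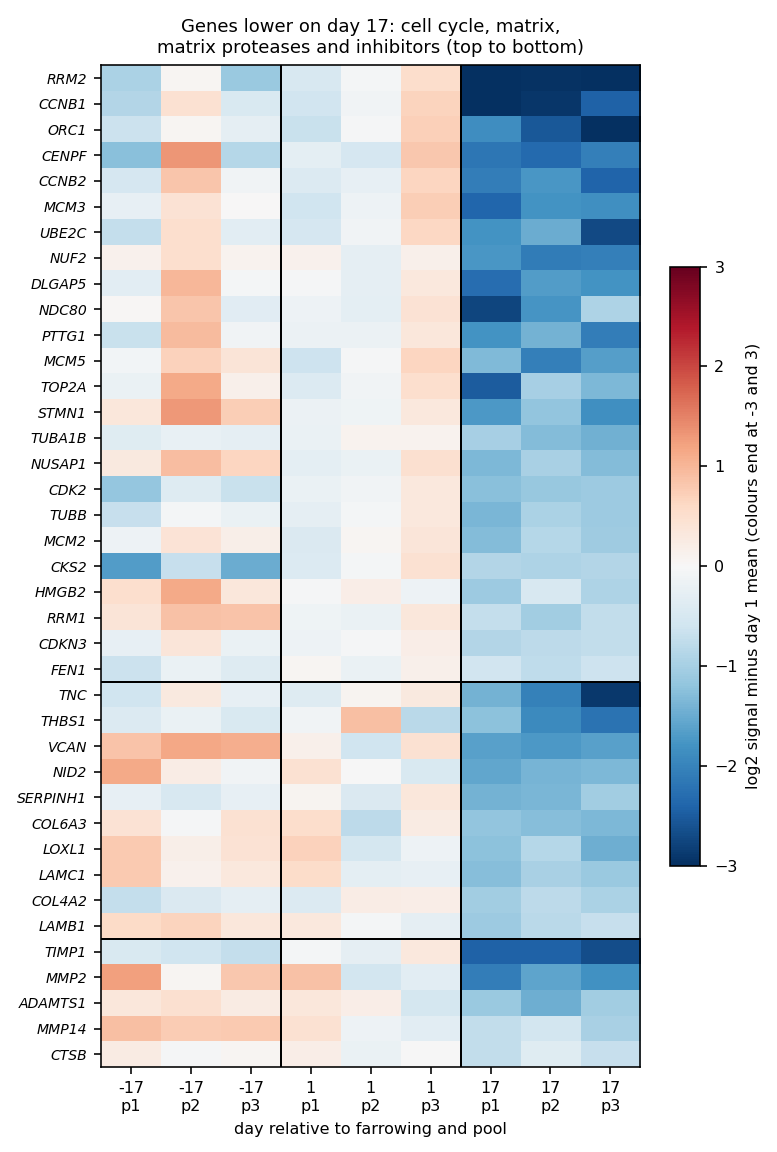
Log2 signal minus the day 1 mean in each of 9 pools (columns, by day and pool) for the 39 genes of 3 lists that passed as lower on day 17 (rows: 24 cell cycle, 10 matrix, 5 matrix proteases and inhibitors); blue is lower, red higher, and colours end at -3 and 3. The day 17 columns are blue throughout because lower genes were selected; the columns of day -17 and day 1, which show how the pools of each day vary, are redder in pool 2 of day -17 and pool 3 of day 1 for many cell cycle genes.

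Regulators of growth and early response included several falls. EGR1, an immediate early transcription factor, gave 990.1, 1295 and 772 on day 1 and 257, 254 and 447 on day 17, a 3.24-fold fall with separate groups (log2 difference -1.69 ± 0.32, adjusted p = 0.00876). KLF10, a zinc finger factor induced by TGF-beta, fell 2.36-fold (log2 difference -1.24 ± 0.20, adjusted p = 0.00545). TGFB3, transforming growth factor beta 3, gave 636, 656 and 439 on day 1 and 268, 242 and 259 on day 17 and fell 2.22-fold (log2 difference -1.15 ± 0.18, adjusted p = 0.00459). Of 24 immediate early and C/EBP factors 3 passed as lower (12.5%, against 8.57% of all genes) and 21 did not pass (median -0.39). RORA, a nuclear receptor, went the other way, rising 2.08-fold (log2 difference 1.06 ± 0.18, adjusted p = 0.00711). Of 22 cytokine and chemokine genes 2 passed as higher (9.09%, against 8.02% of all genes) and 4 as lower (18.2%, against 8.57%), CCL28 and CXCL14 being the ones that kept their calls.

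Lists of chaperones, splicing factors and aminoacyl-tRNA synthetases had more lower than higher calls. Of 30 cytosolic chaperones 11 passed as lower, against 8.57% of all genes, and 1 as higher (median -0.49). CRYAB, a small heat shock protein, gave 973, 1492 and 836 on day 1 and 546, 407 and 388 on day 17. Its fall was 2.41-fold with separate groups (log2 difference -1.27 ± 0.23, adjusted p = 0.00854). HSP70.2, an inducible heat shock protein, fell 1.77-fold (log2 difference -0.82 ± 0.15, adjusted p = 0.00757) and HSPA4, a nucleotide exchange partner of such proteins, 1.76-fold (log2 difference -0.82 ± 0.14, adjusted p = 0.00734). Dropping L1-3 left 7 lower calls and dropping L17-2 left 5. In the endoplasmic reticulum 5 of 21 folding genes passed as lower (23.8%, against 8.57% of all genes; median -0.31). MANF, a stress-induced secreted protein of that compartment, gave 3126, 4052 and 4741 on day 1 and 1686, 1744 and 1699.9 on day 17. It fell 2.29-fold (log2 difference -1.196 ± 0.16, adjusted p = 0.00247) to a day 17 mean of 1710, beside a day -17 mean of 1364. Also lower were the chaperone HSPA5 (-0.72 ± 0.17) and the disulphide isomerases PDIA3 (-0.84 ± 0.18), PDIA4 (-0.91 ± 0.21) and PDIA6 (-0.62 ± 0.15), named after their values were seen. Dropping L1-1 raised these calls to 9, dropping L1-2 or L1-3 left 2, dropping L17-2 left 3 and dropping L17-3 left 1.

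SNRPD1, a core protein of spliceosomal particles, gave 1883, 1863 and 2439 on day 1 and 794, 764 and 801 on day 17, a 2.6-fold fall with the day 17 pools close together (log2 difference -1.38 ± 0.14, adjusted p = 0.00113). SRSF7 and SRSF3, splicing regulators, fell 1.93- and 1.92-fold (log2 difference -0.95 ± 0.16 and log2 difference -0.94 ± 0.14). Of 47 splicing factors 13 passed as lower (27.7%, against 8.57% of all genes) and 34 did not pass (median -0.36), 7 kept their calls, and 8 passed when L17-3 was dropped. Among 17 cytosolic aminoacyl-tRNA synthetases and partners, 5 passed as lower (29.4%, against 8.57% of all genes) and 12 did not pass (median -0.52). AIMP2, a scaffold of the synthetase complex, fell 2.06-fold (log2 difference -1.04 ± 0.19, adjusted p = 0.0077) and FARSB, a subunit of phenylalanyl-tRNA synthetase, 1.81-fold (log2 difference -0.86 ± 0.16, adjusted p = 0.0101). Dropping L1-1 raised these calls to 10, dropping L1-3, L17-2 or L17-3 left 3 and dropping L17-1 left 2; 8 passed with the filter at the 60th percentile or the replicate block. TUSC3, a subunit of the oligosaccharyltransferase that glycosylates new proteins, gave 1235, 1891 and 1668 on day 1 and 701, 797 and 785 on day 17 and fell 2.07-fold (log2 difference -1.05 ± 0.21, adjusted p = 0.0115). EIF1, a factor of translation start, differed from the rest: it rose 1.66-fold (log2 difference 0.73 ± 0.11, adjusted p = 0.00458; -0.14 under E. coli scaling).

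Glycolysis was lower in part. Of 13 enzymes 5 passed as lower (38.5%, against 8.57% of all genes) and 8 did not pass (median -0.42), 4 of which kept their calls. LDHB, lactate dehydrogenase B, gave 9690.5, 14952 and 12636 on day 1 and 5427, 6805 and 6233 on day 17. Every day 17 pool was below every day 1 pool (2-fold; log2 difference -0.997 ± 0.18, adjusted p = 0.00779). ENO1, enolase 1, fell 1.78-fold (log2 difference -0.83 ± 0.14, adjusted p = 0.00632) and TPI1, triosephosphate isomerase, 1.74-fold (log2 difference -0.80 ± 0.13, adjusted p = 0.00488). GAPDH was the fourth (-0.64 ± 0.13), named after its values were seen.

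In mitochondria 4 of 58 oxidative phosphorylation genes passed as lower (6.90%, against 8.57% of all genes) and 54 did not pass. UQCR10, a subunit of complex III, gave 6083, 6582 and 7732 on day 1 and 3035, 2759 and 3011 on day 17, a 2.31-fold fall (log2 difference -1.21 ± 0.13, adjusted p = 0.00113), and COX7A2, a subunit of complex IV, fell 1.61-fold (log2 difference -0.69 ± 0.14, adjusted p = 0.0122). Dropping L1-1 raised these calls to 11, and dropping L1-3, L17-2 or L17-3 left 2; it was 7 with quantile normalization, 9 and 7 with the fixed and random replicate block, and 2 with no intensity trend. Of 58 cytosolic ribosomal proteins 5 passed as higher (8.62%, against 8.02% of all genes) and 2 as lower (3.45%, against 8.57%), and the median of 0.17 turned to -0.14 with quantile normalization and to -0.70 under E. coli scaling. RPS27 was the first of them by p (log2 difference 0.51 ± 0.11, adjusted p = 0.0137), with signals of 19324, 23834 and 23052 on day 1 and 32703, 31144 and 29838 on day 17; it did not pass when L17-1 was dropped (adjusted p = 0.0556), and its difference was -0.37 under E. coli scaling. The mean over the 2 probe sets of RPS27 gave an adjusted p of 0.251. For the list, dropping L17-1 left 0 higher calls in limma, and dropping L17-2 or L17-3 left 1. Quantile normalization gave 0 higher and 12 lower, the replicate block 11 higher, the filter at the 60th percentile 8 higher, and median centring, no filter, no intensity trend and the 6 pools alone 1 higher each.

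Enzymes against oxidants and aldehydes were called in both directions. PRDX6, a peroxiredoxin, gave 1532, 2140.2 and 1623 on day 1 and 753, 798 and 654 on day 17 and fell 2.38-fold (log2 difference -1.25 ± 0.15, adjusted p = 0.00164). MGST1, a microsomal glutathione transferase, gave 17046, 24156 and 26350 on day 1 and 38002, 38595 and 38353 on day 17; it rose 1.73-fold (log2 difference 0.79 ± 0.15, adjusted p = 0.0105), but under E. coli scaling the difference was -0.08. PRDX1 (-1.04 ± 0.19), a second peroxiredoxin, and GSTO1 (-1.24 ± 0.16), a glutathione transferase, also fell and kept their calls; both were named after their values were seen. Of 32 antioxidant genes 4 passed as higher (12.5%) and 3 as lower (9.38%), against 8.02% and 8.57% of all genes, and 2 higher calls were left when L17-1 or L17-2 was dropped and 1 for L17-3. ALDH2, mitochondrial aldehyde dehydrogenase, rose 2.13-fold (log2 difference 1.09 ± 0.17, adjusted p = 0.00423), beside ALDH1A1. Of 18 xenobiotic and aldehyde metabolism genes 4 passed as higher (22.2%, against 8.02% of all genes) and 14 did not pass; the median of 0.03 turned to -0.004 with median centring and -0.84 under E. coli scaling, and 2 calls were left when L17-3 was dropped.

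Over all genes 8.02% passed as higher and 8.57% as lower, the shares to set beside those of the remaining lists. Under E. coli scaling the genes of these lists that passed were lower. Of 41 translocon, coat and Golgi transport genes 1 passed as higher (2.44%) and 6 as lower (14.6%), none of which kept its call. The first by p was TMED2, a cargo receptor of coated vesicles, at 12941, 12871 and 13917 on day 1 and 10018, 9283 and 8954 on day 17 (log2 difference -0.49 ± 0.10, adjusted p = 0.0115), whose adjusted p was 0.0503 when L17-3 was dropped. Of 24 N-glycosylation genes 5 passed as lower (20.8%), TUSC3 alone keeping its call. Of 29 translation factors 1 passed as higher (3.45%), EIF1, and 3 as lower (10.3%). PSMB3, a core subunit of the proteasome, fell 1.8-fold (log2 difference -0.85 ± 0.15, adjusted p = 0.00727) and kept its call, the only one of 4 lower calls (12.1%) among 33 proteasome genes to do so. DLST of the citrate cycle passed as lower (log2 difference -0.49 ± 0.13, adjusted p = 0.0342), the single call of 22 genes (4.55%). Its adjusted p was 0.0833, 0.0835, 0.0751, 0.0897 and 0.101 when L1-2, L1-3, L17-1, L17-2 and L17-3 were dropped. Of 15 amino acid and peptide transporters 2 passed as higher (13.3%) and 1 as lower (6.67%). The first by p was SLC15A2, a peptide transporter, at 101, 118 and 70 on day 1 and 250.1, 201 and 335 on day 17 (log2 difference 1.45 ± 0.30, adjusted p = 0.0143; adjusted p = 0.0569 when L17-3 was dropped).

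OCLN, occludin of tight junctions, passed as higher (log2 difference 0.79 ± 0.19, adjusted p = 0.0242; -0.08 under E. coli scaling), 1 of 2 calls among 12 junction and adhesion genes. Its adjusted p was 0.0555, 0.0704, 0.0534, 0.0857 and 0.0687 when L1-1, L1-3, L17-1, L17-2 and L17-3 were dropped, and 0.112 for the mean over its 2 probe sets. Of the 12 genes, 8.33% passed in each direction. CFLAR, an inhibitor of death receptor signalling, passed as higher (log2 difference 0.61 ± 0.13, adjusted p = 0.0141), with a difference of -0.27 under E. coli scaling. The adjusted p of CFLAR was 0.0557 when L17-3 was dropped and 0.0567 for the mean over its 2 probe sets. Of 14 apoptosis genes 1 other passed, as lower (7.14% in each direction). Of 14 cholesterol synthesis genes 2 passed as higher and 2 as lower, of 17 genes of fatty acid uptake and breakdown 2 and 1, of 9 class II genes 1 as higher, of 12 class I genes 3 as higher and 1 as lower, and of 23 genes of hormone response 4 and 2. In these 5 lists the genes that kept their calls were those given above: SC5D and NSDHL, ACADS and ACADL, SLA-3, B2M and PSME2, and RORA and TGFB3.

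Lists of markers of the tissue's other cells gave 1 call or none each, against 8.02% higher and 8.57% lower over all genes. Of 8 luminal epithelial markers EPCAM passed (log2 difference 0.66 ± 0.19, adjusted p = 0.0438; -0.22 under E. coli scaling), and its adjusted p was 0.0562 when pool 2 of day -17 was dropped, 0.0846 and 0.121 for L1-1 and L1-2, and 0.122, 0.0835 and 0.119 for L17-1, L17-2 and L17-3. EPCAM also did not pass with quantile normalization (0.165), median centring (0.0712), no filter (0.0673) or no intensity trend (0.0823). The summed luminal signal was 24410 to 38380 on day 1 and 39200 to 42390 on day 17, so the labelled tissue carried its epithelial markers on both days. The 6 myoepithelial and smooth muscle markers had adjusted p of 0.0645 to 0.829; the first by p was OXTR, the oxytocin receptor, at 68.4, 93.8 and 106 on day 1 and 311, 199 and 128 on day 17 (log2 difference 1.18 ± 0.38, adjusted p = 0.0645). TIE1, a receptor of vessel walls, was the single call among 6 endothelial markers (log2 difference -1.15 ± 0.26, adjusted p = 0.0194) and its adjusted p was 0.0513, 0.0547 and 0.0683 when L1-3, L17-1 and L17-2 were dropped. CD163, a scavenger receptor, led 5 macrophage markers by p but did not pass, at 2659, 1874 and 672 on day 1 and 635, 869 and 496 on day 17 (log2 difference -1.204 ± 0.43, adjusted p = 0.0908). A further CD163 probe set differed in sign, and the mean of both gave -0.435 (adjusted p = 0.534). The summed signal of the 5 markers was 4368 to 9255 on day 1 and 3311 to 4262 on day 17. HBB, beta-globin, did not pass (log2 difference -0.42 ± 0.13, adjusted p = 0.0545), with a summed erythrocyte signal of 820.4 to 1170 on day 1 and 589.1 to 716.7 on day 17. KRT10, the skin keratin tested, did not pass (log2 difference -0.14 ± 0.18, adjusted p = 0.649), and 0 of the skeletal muscle markers passed the filter.

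**Figure D5:**
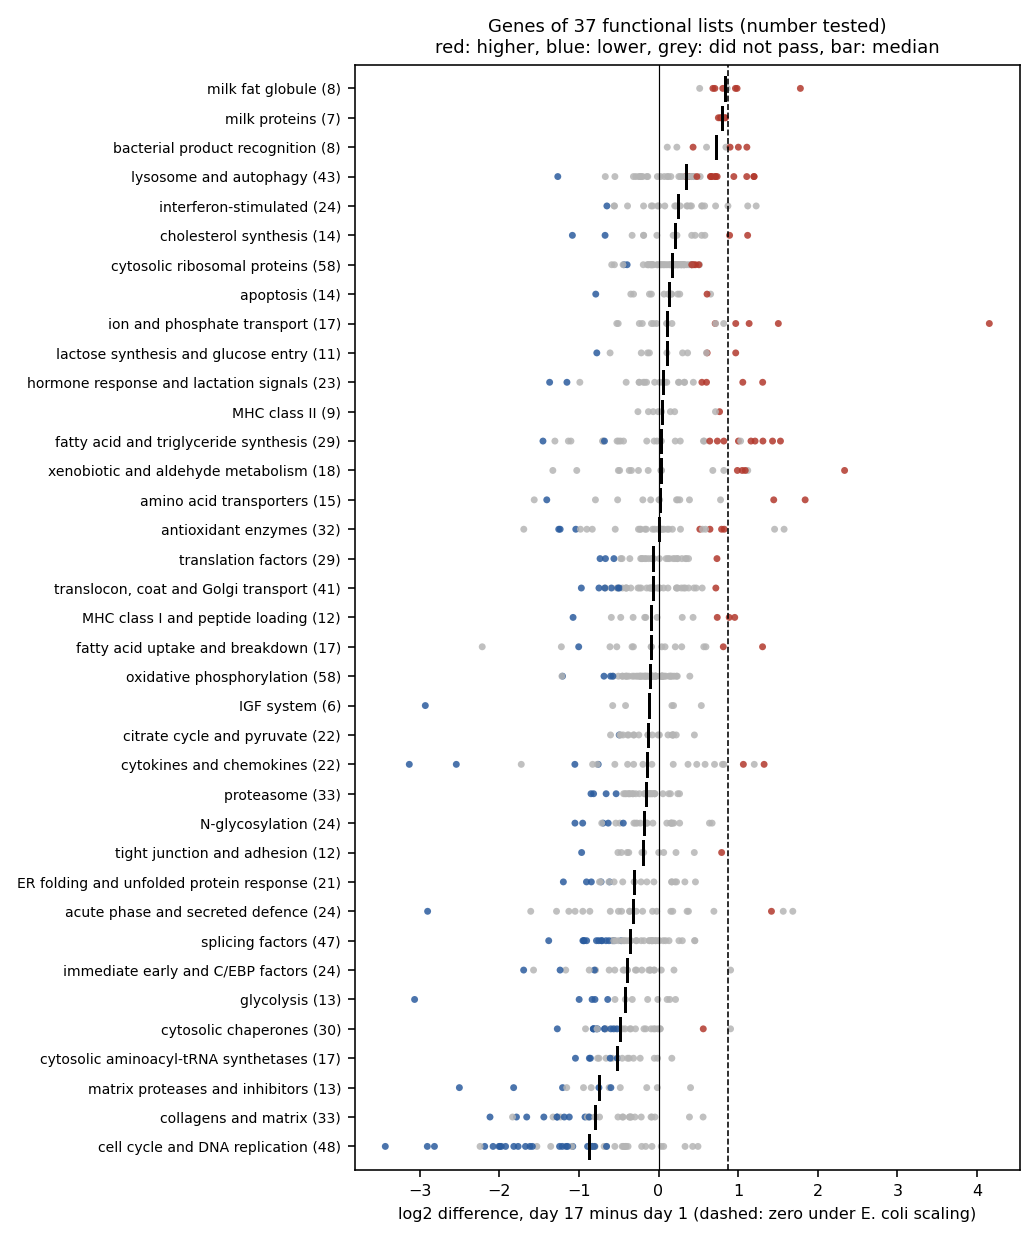
Log2 difference, day 17 minus day 1 (x axis), of each tested gene in the 37 functional lists (rows, with the number tested, ordered by median); red points passed as higher, blue as lower, grey did not pass, black bars are medians and the dashed line is zero under E. coli scaling. Milk fat globule, milk protein and bacterial recognition genes lie furthest right with medians of 0.83, 0.80 and 0.72, all to the left of the dashed line and so negative under E. coli scaling, and cell cycle, matrix and matrix protease genes lie furthest left at -0.87, -0.79 and -0.75.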

How the data were processed

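Each of 9 arrays held pooled total RNA of 2 sows, labelled with biotin, on Affymetrix porcine GeneChips. The deposited values are intensities on a linear scale, a signal for each probe set on each array. The submitters' processing notes name MAS5, whose version and settings are not given in the sources used here. Arrays have no read depth, and their number limits the precision. Of 24123 probe sets, 124 controls were set aside, and 15519 of 23999 were tested, those at or above the 40th percentile of their array in at least 3 arrays. Platform annotation gave 10099 probe sets 1 symbol, 198 several and 13826 none. A gene with several probe sets took the one with the highest mean log2 signal. Log2 signals of all 9 arrays, with no pseudocount, were fitted with limma 3.58.1 in R 4.3.3 (intensity trend, day as the only term), two-sided, adjusted by Benjamini-Hochberg over all tested probe sets at 0.05. The code was tested on simulated data. An exact test of 3 against 3 pools cannot go below p = 0.1, so none was used, and p-values measure the spread between pools. The same sows were biopsied on every day, but the main fit took the pools as independent. The spread it used therefore includes differences between sows. Folds are 2 to the power of the mean log2 difference.

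Lists (37 of functions, 12 of cell type markers) and the comparison itself were chosen with earlier results of these data known. Named were the 8 largest rises and 8 largest falls that passed, kept the call without each array and had groups that did not overlap. Each list gave up to 3 such genes in its majority direction and 1 in the other, or else the gene with the smallest p. Any gene outside this rule is marked as named after its values were seen, which also holds for listed members given beside a count. Alternatives were quantile normalization, median centring, E. coli scaling, a pseudocount of 16, a filter at the 60th percentile or none, no trend, the 6 pools alone, the pool number as a block, a mean over probe sets, a minimum fold of 2, and each array left out.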

Additional observations from a re-analysis of the deposited data

How the results depend on the processing

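The counts of probe sets depended most on scaling. E. coli scaling gave 11114 passing, 112 higher and 11002 lower. Of the 455 genes higher as deposited, 264 were negative under it. Calls were 51.5% higher as deposited, 51.3% with quantile normalization and 44.4% with median centring. A minimum fold of 2 left 820, 376 higher and 444 lower. Leaving out 1 array gave 1049 to 2109 passing, 516 to 1100 higher and 533 to 1051 lower. The count was within 1.5 times of 2116 with no filter (1828), a filter at the 60th percentile (2055), a pseudocount of 16 (2222), quantile normalization (2075), median centring (1949), no intensity trend (1717) and the 6 pools alone (1677). Pool numbers are not said to stand for the same sows, and pools with the same number correlated at 0.096, 0.107 and 0.0983 across probe sets against -0.0768 to -0.0268 for others; each pool correlated best with its own number. The replicate block gave 2743 passing as a fixed term (1328 higher, 1415 lower) and 2792 as a random one (1438 higher, 1354 lower), and it ended no call of a named gene. With the fixed block 16 matrix genes passed as lower.

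E. coli scaling turned the sign of 19 of 48 list medians and of 23 named genes that passed with the deposited or the E. coli scaling: CSN1S1 (-0.0338), CSN2 (-0.12), CSN3 (-0.0775), WAP (-0.0443), PAEP (-0.0941), MUC15 (-0.0681), MFGE8 (-0.17), FABP3 (-0.19), FASN (-0.0547), B4GALT1 (-0.26), ORAI1 (-0.16), ACADS (-0.0615), EIF1 (-0.14), RPS27 (-0.37), SLA-DMA (-0.11), OCLN (-0.0821), MGST1 (-0.0829), ATP6V1G1 (-0.16), CFLAR (-0.27), EPCAM (-0.22), CD14 (-0.77), FABP4 (-0.87) and XBP1 (-0.65). It also turned LALBA, CSN1S2, MUC4, MUC1, SLC2A1, TLR4 and COL3A1, which passed in neither, and, among listed members given beside a count, IRAK1, ATP6V0E1, GABARAPL2, SQSTM1, CD3E and CD8A. Quantile normalization turned FABP3 (-0.0703). No other alternative turned a named gene that passed.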

Other observations

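Several of the clearest differences lay outside the gene lists and were chosen after their values were seen. FCGR2B, an inhibitory Fc receptor for immunoglobulin G, gave 8333, 25839 and 14848 on day 1 and 4465, 3449.5 and 2379 on day 17, a 4.44-fold fall with separate groups (log2 difference -2.15 ± 0.35, adjusted p = 0.00548) from a day -17 mean of 23320. PTX3, a soluble pattern recognition protein, gave 927, 1080.5 and 604 on day 1 and 55.8, 337 and 164 on day 17 and fell 5.8-fold (log2 difference -2.54 ± 0.52, adjusted p = 0.0126). Both kept their calls whichever pool was left out. APOE, the lipid carrier of macrophages and other cells, fell 2.82-fold at its brighter probe set (log2 difference -1.49 ± 0.25, adjusted p = 0.00557); a further probe set differed in sign, and the mean of both gave a difference of -0.0045. The macrophage markers themselves did not pass, and their part in these falls was not tested.

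EZH2, the histone H3 lysine 27 methyltransferase, gave 1464, 879 and 1197 on day 1 and 3407, 3319 and 3846 on day 17. It rose 3.04-fold with separate groups (log2 difference 1.61 ± 0.26, adjusted p = 0.00547) and also rose under E. coli scaling (0.73). DNMT1, the maintenance DNA methyltransferase, gave 1226, 961 and 1229 on day 1 and 352, 550.2 and 460.4 on day 17 and fell 2.53-fold (log2 difference -1.34 ± 0.27, adjusted p = 0.0118), and CHEK1, a checkpoint kinase, fell 2.81-fold (log2 difference -1.49 ± 0.28, adjusted p = 0.00889).

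Regulators and metabolic genes that rose included CITED2, a transcriptional coregulator, at 2454, 2736 and 2674 on day 1 and 6830.1, 6825 and 9008 on day 17 (2.86-fold; log2 difference 1.52 ± 0.16, adjusted p = 0.00113), and KLF15, a metabolic transcription factor (2.55-fold; log2 difference 1.35 ± 0.16, adjusted p = 0.00162). FST, the activin-binding protein follistatin, gave 428, 366 and 437 on day 1 and 1624, 1242 and 1185 on day 17 (3.27-fold; log2 difference 1.71 ± 0.20, adjusted p = 0.00164), and CD55, a complement regulator, 733, 636 and 553 on day 1 and 2706, 1846 and 2041 on day 17 (3.41-fold; log2 difference 1.77 ± 0.21, adjusted p = 0.00172). These 4 rose under E. coli scaling too, by 0.64, 0.48, 0.83 and 0.89. In ornithine metabolism the enzymes went opposite ways: OAT, ornithine aminotransferase, gave 2895, 1354 and 2507 on day 1 and 6815, 4395 and 7347 on day 17 and rose 2.82-fold (log2 difference 1.495 ± 0.28, adjusted p = 0.0083), while ODC1, ornithine decarboxylase, which starts polyamine synthesis, gave 1544, 3158 and 3104 on day 1 and 803, 986 and 629 on day 17 and fell 3.12-fold (log2 difference -1.64 ± 0.29, adjusted p = 0.00748). OAT did not pass under E. coli scaling (0.62, adjusted p = 0.0565). LOXL4, a collagen cross-linking enzyme, fell 3.76-fold (log2 difference -1.91 ± 0.33, adjusted p = 0.00709).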
